A study of Danio rerio with 4 samples.

Results

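The genes described here are 45 transcription factors whose expression marks parts of the zebrafish brain, among the 31030 genes of a count table made from adult brain RNA. They were taken from a list of names that was chosen with earlier results of these data known. Of these, 42 were found in the table by their symbol. The genes en1b, en2a and en2b were found by their gene number, since the table holds them under the older names eng1b, eng2a and eng2b. The members were grouped by the brain part they are known for: telencephalon (7 genes of the pallium or the whole telencephalon and 7 of the subpallium), hypothalamus (8), thalamus and habenula (9), tectum and midbrain (7) and cerebellum (5). The remaining pair, phox2a and phox2bb, belongs to brainstem nuclei and was kept apart. The comparison asks whether any brain part differs between the 4 libraries of the table.

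The libraries come from the brains of male atrn-/-, male wild-type (WT), female atrn-/- and female WT zebrafish at 4 months after fertilization, with 1 library for each. The atrn-/- fish carry a small CRISPR-Cas9 deletion in atrn, the gene of the transmembrane glycoprotein attractin, and the paper's methods name the line atrn nju70 for this experiment. The paper's methods describe RNA of a single brain while its results describe several brains in each group, so the number of fish behind each library is not known. With 1 library for each sex and genotype, the 2 sexes are the only replicates of a genotype, and p-values measure only the spread between these libraries. The labels give the tissue as brain, and 16 of 16 neuron genes passed the count minimum, with summed levels in CPM (counts relative to the library size after TMM scaling) of 13393 in male atrn-/-, 13664 in male WT, 13197 in female atrn-/- and 12769 in female WT.

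Transcription factors of this kind are switched on in the embryo as the neural tube is divided along its length, and many stay on in the adult in the neurons of the part in which they first acted. Their mRNAs are therefore used as position markers for brain tissue. In the telencephalon, T-box and Emx factors mark the pallium with its glutamatergic neurons, and Dlx factors mark the subpallium, the source of many GABAergic neurons. Otp, Nkx2 and Sim1 factors mark the hypothalamus and preoptic area, Otx, Pax and Engrailed factors the midbrain and its boundary with the hindbrain, and Zic and Neurod factors the granule cells of the cerebellum. Many members are also used outside the part they are listed under, such as pax6a and lhx5 in the cerebellum.

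The libraries held 16254750 counts in male atrn-/-, 16100263 in male WT, 13116358 in female atrn-/- and 8654693 in female WT. Of the 45 members, 44 passed the minimum of a mean of 10 counts, and atoh1a did not. The targeted gene atrn had 462 counts in male atrn-/- and 808 in male WT, and 423 in female atrn-/- and 662 in female WT. After scaling, its log2 ratio of atrn-/- over WT was -0.81 in males and -1.22 in females. Over both sexes the log2 fold change was -1.02 (adjusted p = 0.0752 by edgeR). Genes of muscle and blood, and of photoreceptors and the pineal gland, differed between libraries when summed over all those found in the table. The 27 skeletal muscle genes summed to 151 CPM in male atrn-/- and 289 in male WT. In the females they summed to 712 CPM in atrn-/- and 5802 in WT. The 13 blood genes summed to 1066 CPM in male atrn-/- and 2774 in male WT, and to 1064 in female atrn-/- and 2005 in female WT. In the sum over 36 photoreceptor and pineal genes, male atrn-/- had 605 CPM and male WT 446, and female atrn-/- had 503 and female WT 404. Of these lists, 25 muscle, 12 blood and 21 photoreceptor and pineal genes passed the same minimum and are counted below. The minimum is a mean over all libraries, so a gene can pass it only through the libraries where it is high. Counts of such genes as higher in those libraries may therefore be partly set by the filter, and are a description only. The 21 had a median log2 ratio of atrn-/- over WT of 2.56 in males and 1.26 in females. By this ratio, 19 of the 21 were higher by at least 1.5-fold in males and 13 in females, against 7.54% and 8.35% of all genes. None of the muscle and blood genes that passed the minimum was at 0 in any library. The cone opsin opn1lw1, named after its values were seen, was at 0 in both WT libraries.

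Over both sexes, no member passed edgeR's quasi-likelihood test for atrn-/- against WT at an adjusted p of 0.05, and DESeq2's Wald test also called 0. At an unadjusted p under 0.05 edgeR gave 7 members, and 1809 of the 19943 genes tested. Among all genes the adjusted test called 42, or 0.211%. The same fit called 0 members for female against male, where 0.14% of all genes passed, and DESeq2 again called 0. Here 6 members and 1510 genes had an unadjusted p under 0.05. In all, 24 of the 44 members had the same direction of atrn-/- against WT in both sexes. The share over all genes was not computed, so this count is a description only. Below, the fold changes over both sexes are also given with 1 library left out. Those fits of 3 libraries hold genotype or sex alone, since a model of both would leave no residual degree of freedom, so that they differ from the fit of all libraries in the model as well as in the library.

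Within a sex, the ratio of atrn-/- over WT rests on 1 library for each genotype and has no p-value. Its 95% interval is an exact Clopper-Pearson interval and covers counting error only. In the males, 4 members were lower by at least 1.5-fold in atrn-/- and 2 were higher, against 7.02% of all genes lower and 7.54% higher. In the females, 7 members were lower by at least 1.5-fold and 4 were higher, against 10.4% of all genes lower and 8.35% higher. The median log2 ratio of the 44 members was -0.14 in males and -0.06 in females, beside -0.01 in males and 0.00 in females over all genes.

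**Figure D1:**
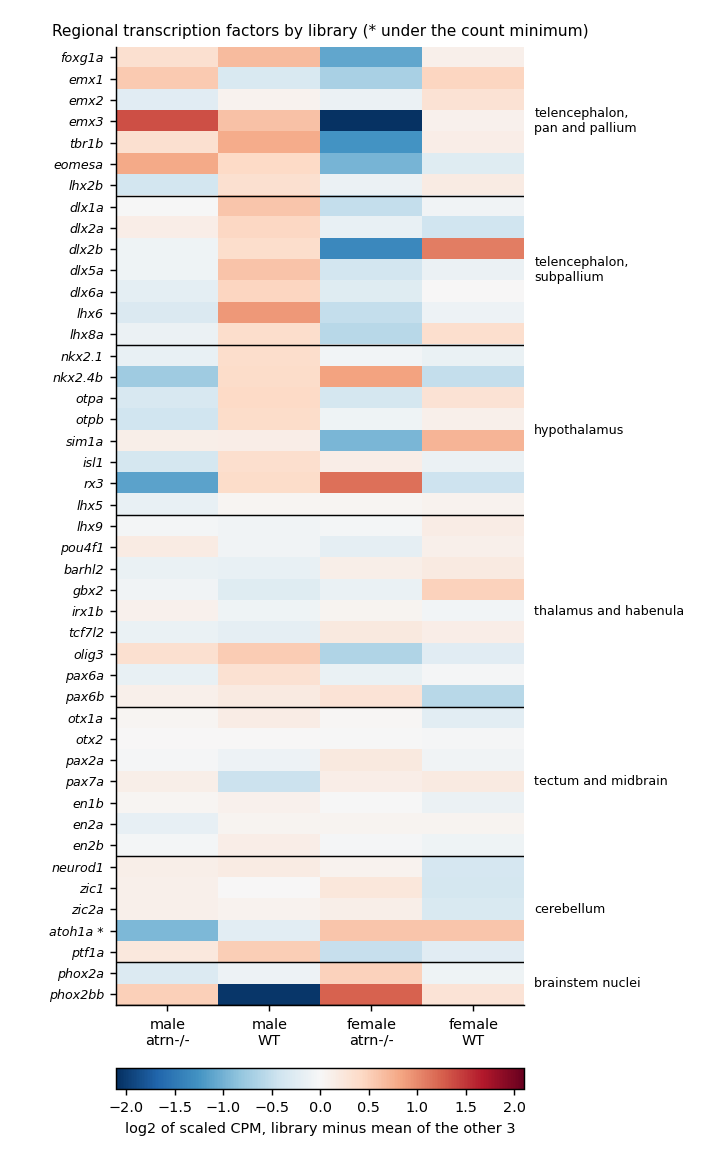
Level of each of the 45 members in each library, as the log2 CPM of that library minus the mean of the other 3 (blue is lower, red is higher), with genes in rows by brain part and libraries in columns. The pallial genes are mostly blue in female atrn-/- (median -0.97), and the rows of the tectum are close to white apart from pax7a in male WT (-0.45).

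Of the brain parts with more than 2 members, the telencephalon had the widest relative spread of summed levels between libraries. Its 14 members summed to 287 CPM in male atrn-/- (95% counting interval 279 to 296) and 342 CPM in male WT (333 to 351). In the females they summed to 193 CPM in atrn-/- (186 to 201) and 270 CPM in WT (259 to 281). The order of the sums was male WT, male atrn-/-, female WT and female atrn-/-, and only the intervals of male atrn-/- and female WT overlapped. Such a sum is weighted towards the genes with the most counts. In whole-brain RNA, fewer cells of a type and less RNA in each cell cannot be told apart.

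Female atrn-/- was the library with the lowest value for 11 of the 14 telencephalic members, against 4977 of the 19943 genes tested. Against the mean of the other 3 libraries, 7 of the 14 were lower there by at least 1.5-fold and none was higher, whereas 7.12% of all genes were lower in that library and 5.56% higher. The highest value was in male WT for 9 of the 14, against 5492 of the 19943 genes tested. In male WT, 5 of the 14 lay at least 1.5-fold above the mean of the other 3 and none below, against 6.28% of all genes above and 6.98% below. In male atrn-/-, emx3 and eomesa were above by this measure and none was below, against 4.87% of all genes above and 4.42% below. In female WT, dlx2b was above and none was below, against 7.66% and 6.16% of all genes.

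Female WT was the shallowest library and held the most muscle RNA, so female atrn-/- was also set against the 2 male libraries alone, an alternative added after the data had been seen. Of the 14 members, 5 of the pallium and 3 of the subpallium were then lower by at least 1.5-fold, against 7.42% of all genes. The median was -1.19 for the pallium and -0.53 for the subpallium. This comparison sets a female library against male libraries only, so a difference between the sexes is part of these values and cannot be told apart. Among genes of other origins, 11 of 12 blood genes were lower by at least 1.5-fold in female atrn-/- than the mean of the other 3 libraries, as were 8 of 12 in male atrn-/-, and 9 of 16 hindbrain Hox genes were higher by as much in female atrn-/-. Of all genes, 7.12% were lower by this measure in female atrn-/- and 4.42% in male atrn-/-, and 5.56% were higher in female atrn-/-. The part of the blood and Hox differences in the telencephalic result was not tested.

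foxg1a encodes a forkhead factor of the whole telencephalon. It had 543 counts (33.7 CPM) in male atrn-/- and 638 (39.9 CPM) in male WT, and 209 (15.9 CPM) in female atrn-/- and 262 (29.8 CPM) in female WT. Female atrn-/- stood below the other libraries, and both female libraries were below both male libraries. The log2 ratio of atrn-/- over WT was -0.24 in males (95% interval -0.41 to -0.08) and -0.90 in females (-1.17 to -0.64). For both sexes together, the fold change on the log2 scale was -0.55 (SE 0.189, adjusted p = 0.453 by edgeR), lower in atrn-/- in both sexes. With 1 library left out it lay between -1.13 (without male atrn-/-) and -0.05 (without female atrn-/-).

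tbr1b, a T-box factor of maturing glutamatergic neurons of the pallium, had the same order of libraries. Its counts were 618 (38.3 CPM) in male atrn-/- and 767 (48.0 CPM) in male WT, and 218 (16.6 CPM) in female atrn-/- and 302 (34.4 CPM) in female WT. The log2 ratio was -0.32 in males (-0.48 to -0.17) and -1.04 in females (-1.31 to -0.79), so that female atrn-/- had 48.6% of the level in female WT. The log2 fold change was -0.66 for atrn-/- over WT (SE 0.191, adjusted p = 0.367) and -0.83 for female over male (SE 0.192, adjusted p = 0.421), both by edgeR. With 1 library left out, the genotype value lay between -1.31 (without male atrn-/-) and -0.11 (without female atrn-/-), and the sex value between -1.38 (without female WT) and -0.32 (without female atrn-/-).

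eomesa is the T-box gene also known as Tbr2, active in glutamatergic neurons and, in mice, in their progenitors. It separated the sexes more than the genotypes, with 327 counts (24.9 CPM) in female atrn-/- and 320 (36.4 CPM) in female WT, against 1014 (62.9 CPM) in male atrn-/- and 827 (51.7 CPM) in male WT. The female over male log2 fold change was -0.92 (SE 0.201, adjusted p = 0.379 by edgeR), and between -1.20 and -0.65 with 1 library left out. Within the sexes, atrn-/- was on opposite sides of WT: the log2 ratio was 0.28 in males (0.15 to 0.42) and -0.54 in females (-0.77 to -0.32).

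The 3 Emx genes, homeobox factors of the dorsal telencephalon, did not share a pattern. emx2 had 520 counts (32.2 CPM) in male atrn-/- and 607 (37.9 CPM) in male WT, and 449 (34.2 CPM) in female atrn-/- and 378 (43.0 CPM) in female WT. It was lower in both atrn-/- libraries than in both WT libraries, with log2 ratios of -0.23 in males and -0.33 in females. emx1 had 58 counts in male atrn-/- and 36 in male WT, and 24 in female atrn-/- and 30 in female WT. The ratio on the log2 scale was 0.64 in males (0.05 to 1.32) and -0.85 in females (-1.74 to -0.08). The male and female ratios of emx1 thus had opposite signs. emx3 had 41 counts in male atrn-/- and 27 in male WT, and 4 in female atrn-/- and 11 in female WT, the fewest counts of any telencephalic member. Its log2 ratio was 0.55 in males (-0.14 to 1.35) and -1.63 in females (-4.14 to -0.28).

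The last pallial gene, lhx2b, encodes a LIM homeobox factor needed for cortical patterning in mice. It had 273 counts in male atrn-/- and 394 in male WT, and 253 in female atrn-/- and 199 in female WT, with log2 ratios of -0.54 (-0.77 to -0.31) in males and -0.23 (-0.51 to 0.04) in females. Like emx2, it was not lowest in female atrn-/-, and these were the pallial genes whose genotypes did not overlap. The 7 pallial members had a median log2 ratio of -0.23 in males and -0.85 in females. In females, 6 of 7 had a counting interval below 0, against 3673 of the 19943 genes tested.

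**Figure D2:**
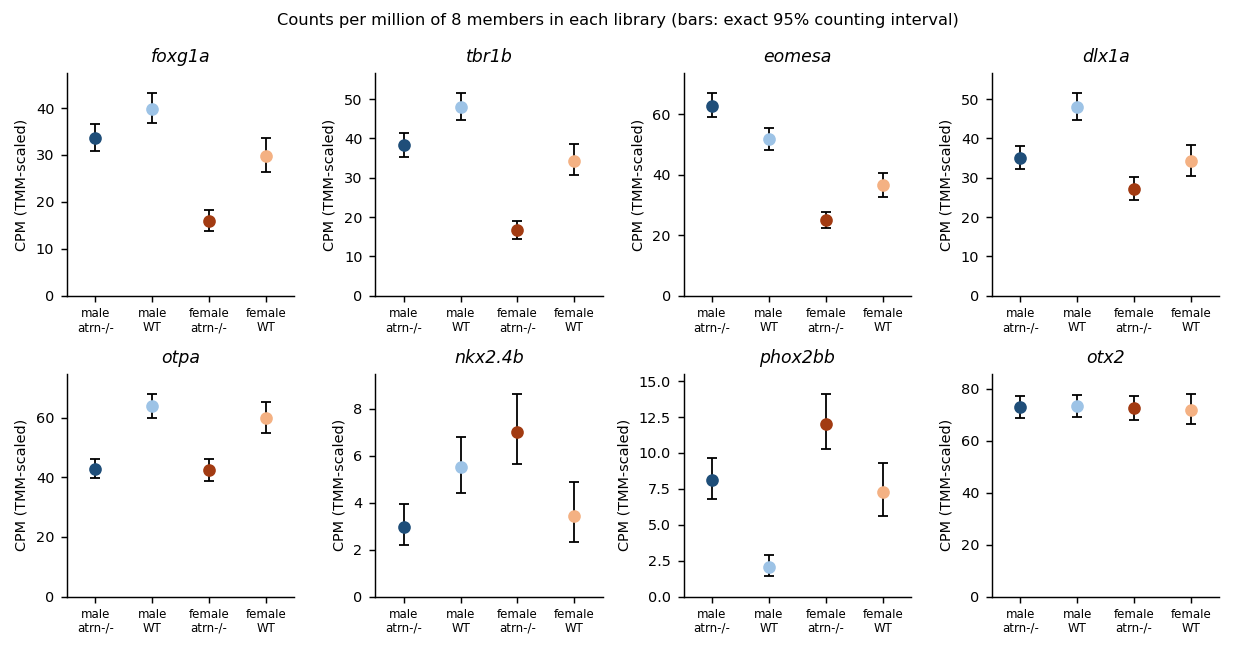
TMM-scaled CPM (y axis, from 0) of 8 members in each of the 4 libraries (x axis), with bars for the exact 95% counting interval. foxg1a and tbr1b are lowest in female atrn-/- at 15.9 and 16.6 CPM, otpa is lower in both atrn-/- libraries, and otx2 lies between 72.1 and 73.3 CPM in all 4.

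In the subpallium, 7 of 7 members were lower in male atrn-/- than in male WT, with a median log2 ratio of -0.45, and 6 of 7 were lower in female atrn-/- than in female WT, with a median of -0.29. Of the 19943 genes tested, 10118 were lower in atrn-/- in males and 9938 in females. Male WT had the highest value for 6 of the 7 and female atrn-/- the lowest for 6 of the 7, against 5492 and 4977 of the 19943 genes tested. The counting interval lay below 0 for 4 members in males and for 3 in females, against 4248 and 3673 of the 19943 genes tested. In female atrn-/-, 2 of 7 members were lower by at least 1.5-fold than the mean of the other 3, beside 5 of 7 in the pallium.

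The Dlx genes are homeobox genes of GABAergic neurons that lie in pairs in the genome. dlx1a had 566 counts (35.1 CPM) in male atrn-/- and 767 (48.0 CPM) in male WT, and 356 (27.1 CPM) in female atrn-/- and 300 (34.2 CPM) in female WT. The log2 ratio was -0.45 in males (-0.61 to -0.29) and -0.33 in females (-0.56 to -0.10), and its log2 fold change over both sexes was -0.39 (SE 0.133, adjusted p = 0.449 by edgeR). The last value lay between -0.62 (without female WT) and -0.13 (without male WT) with 1 library left out. dlx1a was thus lower in atrn-/- within each sex, although male atrn-/- lay above female WT.

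dlx2a had 262 counts in male atrn-/- and 302 in male WT, and 182 in female atrn-/- and 106 in female WT, and both counting intervals of its ratio included 0. Its paralogue dlx2b had 61 counts in male atrn-/- and 78 in male WT, and 25 in female atrn-/- and 62 in female WT. dlx2b had the lowest female ratio of any member, at -1.81 on the log2 scale (-2.62 to -1.20), beside -0.35 in males (-0.87 to 0.14). Its log2 fold change over both sexes was -1.07 (SE 0.422, adjusted p = 0.519 by edgeR), and between -1.63 (without male atrn-/-) and -0.64 (without female atrn-/-) with 1 library left out.

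dlx5a had 230 counts in male atrn-/- and 326 in male WT, and 159 in female atrn-/- and 123 in female WT. dlx6a had 179 counts in male atrn-/- and 250 in male WT, and 141 in female atrn-/- and 109 in female WT. These neighbours gave nearly equal log2 ratios, -0.51 and -0.49 in males and -0.21 and -0.20 in females. Within each of the pairs dlx1a and dlx2a, and dlx5a and dlx6a, the genes lie beside each other on opposite strands in a RefSeq gene table, and the sources used here do not say whether counting used strand, so that reads from overlapping transcripts could have been shared.

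lhx6 and lhx8a are LIM homeobox genes, known in mice for interneurons and cholinergic neurons that arise in the ventral telencephalon. lhx6 had 191 counts (11.8 CPM) in male atrn-/- and 358 (22.4 CPM) in male WT, and 140 (10.7 CPM) in female atrn-/- and 115 (13.1 CPM) in female WT. Male WT stood above the other 3 libraries, and the log2 ratio was -0.91 in males (-1.18 to -0.66) and -0.29 in females (-0.66 to 0.07). For both sexes together, the fold change of lhx6 on the log2 scale was -0.62 (SE 0.220, adjusted p = 0.472 by edgeR). It lay between -0.99 (without female WT) and -0.22 (without male WT) with 1 library left out. lhx8a had 74 counts in male atrn-/- and 96 in male WT, and 47 in female atrn-/- and 52 in female WT, with log2 ratios of -0.38 (-0.84 to 0.07) and -0.70 (-1.32 to -0.13) in males and females.

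**Figure D3:**
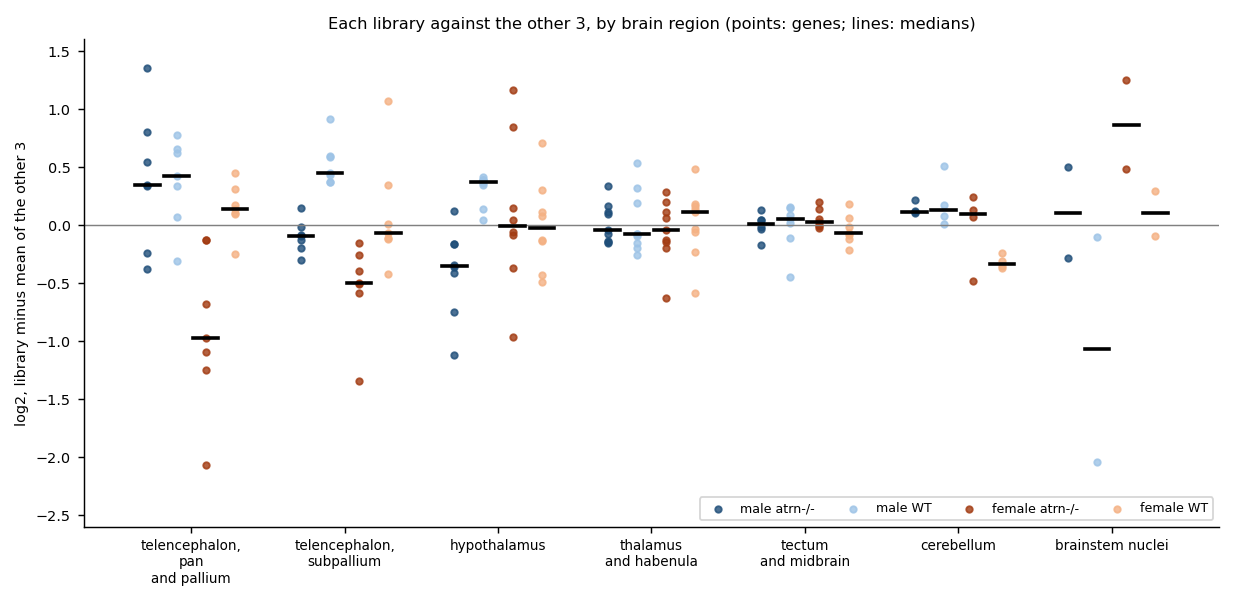
Deviation of each library from the mean of the other 3 (y axis, log2) for the 44 members that passed the count minimum, grouped by brain part (x axis), with a point for each gene, a colour for each library and a black line at the median. Female atrn-/- sits lowest in the pallium and the subpallium, with medians of -0.97 and -0.50, male atrn-/- lowest in the hypothalamus at -0.35, where male WT sits highest at 0.37, and female WT lowest in the cerebellum at -0.33.

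The hypothalamic members parted the male libraries. All 8 were lower in male atrn-/- than in male WT, with a median log2 ratio of -0.55 and a counting interval below 0 for 6 of them. Of the 8, sim1a had equal counts in the male libraries and a log2 ratio of -0.01. Of the 19943 genes tested, 10118 were lower in male atrn-/-, with a counting interval below 0 for 4248. In the females the median was 0.02, with 4 members above 0 and 4 below. Their sum was 114 CPM in male atrn-/- (109 to 119) and 160 CPM in male WT (154 to 167), and 130 CPM in female atrn-/- (124 to 136) and 143 CPM in female WT (136 to 151). Against the mean of the other 3 libraries, the median was -0.35 in male atrn-/- and 0.37 in male WT. Male atrn-/- had the lowest value for 6 of the 8 and male WT the highest for 4, against 4185 and 5492 of the 19943 genes tested. Of other lists, 18 of 21 photoreceptor and pineal genes were highest in male atrn-/-, and 21 of 25 muscle genes were lowest there. Of all genes tested, 4250 were highest and 4185 lowest in that library. Photoreceptor and pineal genes could pass the count minimum through that library, so their count may be partly set by the filter. Muscle genes could pass it through female WT, so their count may be partly set by it too. The part of these lists in the hypothalamic difference was not tested.

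otpa and otpb encode Orthopedia, a homeobox factor needed in zebrafish for neuroendocrine and dopaminergic neurons of the hypothalamus. otpa had 692 counts (42.9 CPM) in male atrn-/- and 1020 (63.8 CPM) in male WT, and 555 (42.3 CPM) in female atrn-/- and 527 (60.0 CPM) in female WT. Both atrn-/- libraries were nearly equal and lay below both WT libraries, which differed little between themselves. The log2 ratio was -0.57 in males (-0.71 to -0.43) and -0.50 in females (-0.68 to -0.33).

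For both sexes together, the fold change of otpa on the log2 scale was -0.54 (SE 0.121), and it had the smallest p of any member for genotype. Its p was 0.00279 before adjustment and 0.237 after Benjamini-Hochberg adjustment over all genes in edgeR, so it did not pass the test. With any 1 library left out, the fold change stayed between -0.58 and -0.49. The adjusted p under the other fits lay between 0.0784 and 1.00. otpb had 284 counts in male atrn-/- and 429 in male WT, and 275 in female atrn-/- and 204 in female WT. It was also lower in both atrn-/- libraries, with a log2 ratio of -0.60 in males (-0.83 to -0.39) and -0.15 in females (-0.41 to 0.12).

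nkx2.4b and rx3 went in opposite directions in the sexes. nkx2.4b, an Nkx2 homeobox gene of the ventral hypothalamus, had 48 counts (2.98 CPM) in male atrn-/- and 88 (5.50 CPM) in male WT, and 92 (7.02 CPM) in female atrn-/- and 30 (3.42 CPM) in female WT. This gave a log2 ratio of -0.85 in males (-1.42 to -0.36) and 1.01 in females (0.43 to 1.68). rx3, a retinal homeobox gene that in zebrafish acts in the eye field and the hypothalamus, had only 7 counts in male atrn-/- and 18 in male WT, and 23 in female atrn-/- and 6 in female WT. Its log2 ratio was -1.13 in males (-2.88 to -0.05) and 1.19 in females (0.02 to 2.95).

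The related gene listed as nkx2.1 had 136 counts in male atrn-/- and 178 in male WT, and 117 in female atrn-/- and 75 in female WT, a log2 ratio of -0.39 in males (-0.73 to -0.07) and 0.06 in females (-0.37 to 0.50). The annotation columns of its row name nkx2.4b, so its identity rests on its symbol alone. isl1, a LIM homeobox gene of several neuron types, had 278 counts in male atrn-/- and 400 in male WT, and 295 in female atrn-/- and 171 in female WT. This gave a log2 ratio of -0.53 in males (-0.76 to -0.31) and 0.21 in females (-0.07 to 0.49), a pattern like that of nkx2.1.

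sim1a, a factor of neuroendocrine neurons of the preoptic area, had 17 counts in male atrn-/- and 17 in male WT, and 7 in female atrn-/- and 13 in female WT. Its female log2 ratio of -1.26 had an interval of -3.04 to -0.04, so that the depth hardly set it apart from 0. lhx5, a LIM homeobox gene of the forebrain, had 377 counts in male atrn-/- and 416 in male WT, and 341 in female atrn-/- and 233 in female WT. Both of its intervals included 0, and its levels were within 23.4 to 26.5 CPM.

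**Figure D4:**
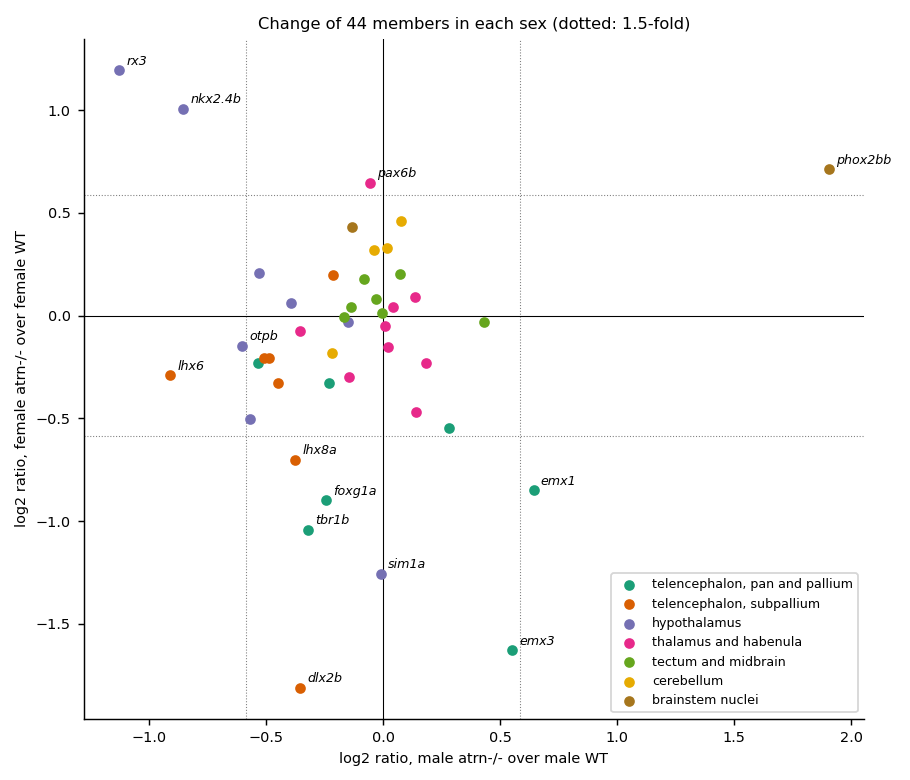
Log2 ratio of atrn-/- over WT in males (x axis) and in females (y axis) for 44 members, coloured by brain part, with dotted lines at 1.5-fold and names for the genes beyond it. Green pallial and orange subpallial points lie mostly below 0 in females, rx3 and nkx2.4b lie at upper left, and phox2bb lies alone at upper right with 1.90 in males and 0.71 in females.

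The members of thalamus and habenula differed little between libraries. They summed to 423 CPM in male atrn-/- (413 to 433) and 429 CPM in male WT (419 to 439), and to 452 CPM in female atrn-/- (440 to 463) and 451 CPM in female WT (437 to 465). The median log2 ratio of the 9 members was 0.02 in males and -0.08 in females. Only pax6b, in females, was past 1.5-fold.

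Of the thalamic genes, lhx9 had the most counts over the 4 libraries together, with 2161 (134 CPM) in male atrn-/- and 2112 (132 CPM) in male WT, and 1761 (134 CPM) in female atrn-/- and 1313 (149 CPM) in female WT. This LIM homeobox gene of thalamic neurons had log2 ratios of 0.02 (-0.07 to 0.11) in males and -0.15 (-0.26 to -0.05) in females. tcf7l2, a Wnt pathway effector of thalamus and habenula, had 1838 counts (114 CPM) in male atrn-/- and 1771 (111 CPM) in male WT, and 1781 (136 CPM) in female atrn-/- and 1157 (132 CPM) in female WT. It did not differ between genotypes beyond counting error, with a log2 ratio of 0.04 in each sex, and its female over male log2 fold change was 0.25 (SE 0.106, adjusted p = 0.657 by edgeR), higher in both female libraries.

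pax6a and pax6b, paralogues of a paired-box factor of the diencephalon and of cerebellar granule cells, parted in different libraries. pax6a had 741 counts (45.9 CPM) in male atrn-/- and 940 (58.8 CPM) in male WT, and 609 (46.4 CPM) in female atrn-/- and 430 (49.0 CPM) in female WT. Male WT stood highest for pax6a, with a log2 ratio of -0.35 in males (-0.50 to -0.21) and -0.08 in females (-0.26 to 0.11). pax6b had 834 counts (51.7 CPM) in male atrn-/- and 860 (53.8 CPM) in male WT, and 740 (56.4 CPM) in female atrn-/- and 316 (36.0 CPM) in female WT. For pax6b, female WT stood below the other 3, with a log2 ratio of -0.06 in males (-0.20 to 0.08) and 0.65 in females (0.46 to 0.84).

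The other thalamic and habenular members stayed within counting error between genotypes in both sexes. They were pou4f1, the habenular POU factor, barhl2, gbx2, irx1b and olig3, with log2 ratios of -0.15 to 0.18 in males and -0.47 to 0.09 in females. Counts were 58 to 79 for gbx2, above 90 for pou4f1, barhl2 and irx1b, and lowest for olig3, a factor of thalamic progenitors in mice. olig3 had 28 counts in male atrn-/- and 31 in male WT, and 13 in female atrn-/- and 11 in female WT. The counting interval of its log2 ratio ran from -0.95 to 0.63 in males and from -1.61 to 0.96 in females, and both include 0.

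The tectum and midbrain were the most even group. The sums of its 7 members were 299 CPM in male atrn-/- (291 to 308) and 299 CPM in male WT (290 to 307), and 311 CPM in female atrn-/- (302 to 321) and 301 CPM in female WT (290 to 313). All 4 intervals overlapped. The median log2 ratio was -0.03 in males and 0.04 in females, and none of the 7 was past 1.5-fold in either sex or in any library against the other 3.

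otx2, a homeobox factor of forebrain and midbrain, varied least: it had 1177 counts (73.0 CPM) in male atrn-/- and 1172 (73.3 CPM) in male WT, and 953 (72.7 CPM) in female atrn-/- and 633 (72.1 CPM) in female WT. Its log2 ratio was -0.01 in males (-0.12 to 0.11) and 0.01 in females (-0.13 to 0.16). The Engrailed genes mark the midbrain and its boundary with the hindbrain. en2a had 976 counts (60.5 CPM) in male atrn-/- and 1087 (68.0 CPM) in male WT, and 893 (68.1 CPM) in female atrn-/- and 601 (68.4 CPM) in female WT. It was slightly lower in male atrn-/-, where its log2 ratio was -0.17 (-0.29 to -0.04). en2b had 470 counts in male atrn-/- and 513 in male WT, and 384 in female atrn-/- and 250 in female WT. en1b had 761 counts in male atrn-/- and 772 in male WT, and 602 in female atrn-/- and 381 in female WT. The intervals of en2b and en1b included 0 in both sexes.

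pax7a, a paired-box gene of the dorsal midbrain, stood out in males. It had 628 counts (38.9 CPM) in male atrn-/- and 461 (28.8 CPM) in male WT, and 514 (39.2 CPM) in female atrn-/- and 352 (40.1 CPM) in female WT. Male WT alone stood low, and the log2 ratio was 0.43 in males (0.26 to 0.61) and -0.03 in females (-0.23 to 0.17). pax2a, of the midbrain-hindbrain boundary, had 778 counts in male atrn-/- and 734 in male WT, and 708 in female atrn-/- and 412 in female WT, with log2 ratios of 0.07 in males (-0.08 to 0.22) and 0.20 in females (0.03 to 0.38). otx1a had 36 counts in male atrn-/- and 38 in male WT, and 29 in female atrn-/- and 17 in female WT, and both of its intervals included 0.

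The cerebellar sum was set by 3 genes of many counts and differed in 1 library. It was 1470 CPM in male atrn-/- (1451 to 1489) and 1445 CPM in male WT (1426 to 1463), and 1510 CPM in female atrn-/- (1489 to 1531) and 1158 CPM in female WT (1136 to 1181). Female WT was the lowest library for 3 of the 4 members that passed the count minimum, against 5565 of the 19943 genes tested. The median of these members in female WT was -0.33 against the other 3. This stayed between -0.35 and -0.33 with any other library left out. In the same library 23 of 25 muscle genes were highest, against 5361 of the 19943 genes tested. Muscle genes could pass the count minimum through female WT, so this count may be partly set by the filter. The part of the muscle RNA in the cerebellar difference was not tested.

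zic1 and zic2a are zinc finger genes of granule cells and of other dorsal parts of the brain. zic1 had 9701 counts (602 CPM) in male atrn-/- and 9136 (571 CPM) in male WT, and 8453 (645 CPM) in female atrn-/- and 4109 (468 CPM) in female WT. zic2a had 7932 counts (492 CPM) in male atrn-/- and 7777 (486 CPM) in male WT, and 6531 (498 CPM) in female atrn-/- and 3478 (396 CPM) in female WT. Both were close to even in males, with log2 ratios of 0.07 (0.03 to 0.12) and 0.02 (-0.03 to 0.06), and higher in atrn-/- in females, with 0.46 (0.41 to 0.52) and 0.33 (0.27 to 0.39).

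neurod1, a basic helix-loop-helix factor of differentiating granule neurons, had 6048 counts (375 CPM) in male atrn-/- and 6172 (386 CPM) in male WT, and 4796 (366 CPM) in female atrn-/- and 2576 (293 CPM) in female WT. Its log2 ratio was -0.04 in males (-0.09 to 0.01) and 0.32 in females (0.25 to 0.39). The progenitor genes of the cerebellum were rare: ptf1a, of the ventricular zone, had 17 counts in male atrn-/- and 20 in male WT, and 9 in female atrn-/- and 7 in female WT. atoh1a, of the rhombic lip, had 2 counts in male atrn-/- and 4 in male WT, and 6 in female atrn-/- and 4 in female WT. No difference could be read from either at this depth.

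**Figure D5:**
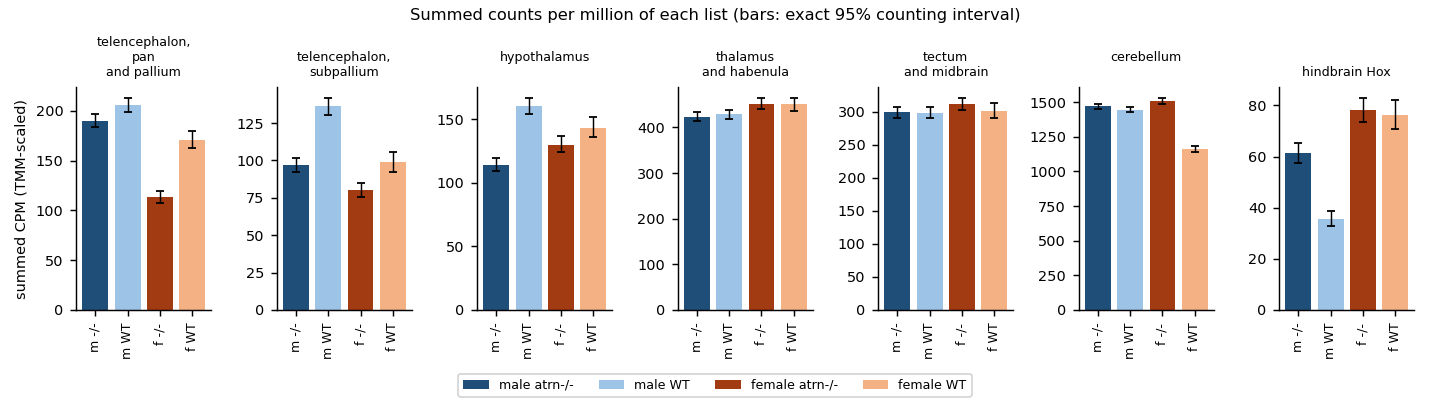
Summed TMM-scaled CPM (y axis, from 0, its own scale in each panel) of 6 groups of members and of the hindbrain Hox genes, with a bar for each library (m, male; f, female; -/-, atrn-/-) and the exact 95% counting interval. The tectal bars lie between 299 and 311 CPM, the pallial bar is lowest in female atrn-/- at 113 CPM, and the Hox bar is lowest in male WT at 35.6 CPM.

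phox2a and phox2bb encode paired-like homeobox factors of noradrenergic and cranial motor neurons in the brainstem. phox2bb had 131 counts (8.12 CPM) in male atrn-/- and 33 (2.06 CPM) in male WT, and 158 (12.05 CPM) in female atrn-/- and 64 (7.29 CPM) in female WT. It was 3.74-fold higher in male atrn-/- than in male WT (log2 ratio 1.90, 1.42 to 2.57) and 1.64-fold higher in female atrn-/- than in female WT (0.71, 0.30 to 1.17). Male WT stood far below the other libraries, and both atrn-/- libraries were above both WT libraries.

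For both sexes together, the fold change of phox2bb on the log2 scale was 1.31 (SE 0.340, adjusted p = 0.321 by edgeR), the largest of any member. With 1 library left out, it lay between 0.46 (without male WT) and 2.28 (without female WT), and the adjusted p of the other fits lay between 0.0400 and 1.00. Without a filter on low counts it was 0.0400, the only member then called. phox2a had 43 counts in male atrn-/- and 47 in male WT, and 53 in female atrn-/- and 26 in female WT, and both of its intervals included 0. Of 16 Hox genes of the hindbrain and spinal cord that passed the count minimum, 13 were lowest in male WT, against 5216 of the 19943 genes tested. Also, 13 were lower there by at least 1.5-fold than the mean of the other 3, against 6.98% of all genes. All 18 Hox genes found in the table summed to 61.5 CPM in male atrn-/- and 35.6 CPM in male WT. In the females they summed to 78.1 CPM in atrn-/- and 76.3 CPM in WT. The part of the Hox difference in that of phox2bb was not tested.

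Counted by the order of the libraries, 11 members lay lower in both atrn-/- libraries than in both WT libraries and 5 lay higher, where 19.2% and 18.6% of all genes did so. The 11 were 6 telencephalic genes (emx2, lhx2b, dlx2b, dlx6a, lhx6 and lhx8a), 4 hypothalamic genes (otpa, otpb, sim1a and lhx5) and pax6a. The 5 were irx1b, pax2a, zic1, zic2a and phox2bb. Both female libraries lay below both male libraries for 13 members and above them for 6, where 17.7% and 18.6% of all genes did so. Of the 13, 7 were telencephalic: foxg1a, emx3, tbr1b, eomesa, dlx1a, dlx2a and dlx5a. No hypothalamic member separated the sexes.

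Other genes of the same brain parts were taken from lists made with earlier results of these data known, and are counted here where they passed the count minimum. Of 21 other telencephalic genes, 9 were lowest in female atrn-/- and 11 highest in male WT, against 4977 and 5492 of the 19943 genes tested. Their median deviation in female atrn-/- was -0.06, beside -0.97 and -0.50 for the pallial and subpallial members. Against WT their median log2 ratio was -0.10 in males and -0.05 in females. In female atrn-/-, 1 of the 21 was lower by at least 1.5-fold than the mean of the other 3 libraries. This compares with 7 of the 14 telencephalic members and 7.12% of all genes. In male WT, 3 of the 21 were higher by as much, beside 5 of the 14 members and 6.28% of all genes. Of 20 other hypothalamic genes, 15 were lower in male atrn-/- than in male WT, with a median of -0.23, and 6 were lower in female atrn-/- than in female WT, with a median of 0.14. Over all 19943 genes tested, 10118 were lower in atrn-/- in males and 9938 in females.

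The other lists had medians near 0 in both sexes for the thalamus and habenula (23 genes, -0.02 in males and 0.09 in females) and for the tectum and midbrain (24 genes, -0.02 and 0.02). In the tectal list, both female libraries lay above both male libraries for 11 of the 24 genes and below them for 1. Among all genes, 18.6% lay above and 17.7% below in this way. The 24 other cerebellar genes had medians of 0.14 in males and 0.20 in females. Of them, 13 were higher in both atrn-/- libraries than in both WT libraries, against 18.6% of all genes. None of the genes in these 5 lists passed edgeR's test for genotype or for sex. At an unadjusted p under 0.05 for genotype by edgeR, these lists gave 1 telencephalic and 4 cerebellar genes, against 1809 of the 19943 genes tested. For sex they gave 3 telencephalic genes, 2 of thalamus and habenula, 1 of the tectum and midbrain and 1 of the cerebellum. Of the 19943 genes tested, 1510 did so for sex. DESeq2 called none of the genes in these lists for either.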

How the data were processed

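RNA of 4 zebrafish brain libraries was analysed from a table of raw counts of reads per gene that the authors deposited, 1 column for each library. The paper names MapSplice for alignment, whereas the submitters' processing notes name HISAT2 and the genome build GRCz10. The counting program and annotation are not given in the sources used here. The paper's RPKM values and EB-Seq screen were not repeated.

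Library totals lay between 8654693 and 16254750 counts. A mean of 10 counts over the libraries was required, which left 19943 genes, and TMM factors (0.992 to 1.01) came from edgeR 4.0.16 (R 4.3.3). CPM use these factors, and log2 values a prior count of 2. atrn-/- and WT were compared over both sexes by edgeR's quasi-likelihood test in a model of sex and genotype (1 residual degree of freedom), and the sexes with the sex term of the same fit, with Benjamini-Hochberg adjustment over all genes. Within a sex, exact Clopper-Pearson intervals were given, and for 1 library exact Poisson intervals. Reads carry no molecular identifiers, so intervals cover counting error only.

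Members, gene lists and tests were chosen with earlier results of these data known. All members are described. The rule named genes of other lists if called or among the 2 most counted of their list, and these are not reported here. Alternatives were DESeq2 1.42.0 size factors or total counts, no filter or a mean of 50 counts, prior counts of 0.5 and 5, a 2-fold threshold, DESeq2's Wald test, a fit without the covariate, and leaving out each library, with the other factor dropped from the model since no residual degree of freedom would remain. Strand of neighbouring genes came from a RefSeq table. Python 3.11.15 with numpy 2.4.6, pandas 2.3.3, scipy 1.17.1 and matplotlib 3.10.9 was used.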

Additional observations from a re-analysis of the deposited data

Results flagged for a closer look

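In the telencephalon and hypothalamus, 4 members had ratios of atrn-/- over WT in opposite directions in the sexes, with counting intervals that exclude 0 on both sides. Of the 19943 genes tested, the interval lay above 0 for 4047 and below 0 for 4248 in males. In females it lay above 0 for 3666 and below 0 for 3673. The share of all genes with opposite directions by this rule was not computed, so the count of 4 is a description only. The difference between the sexes was not tested, since each ratio rests on 1 library for each genotype. emx1 had a log2 ratio of 0.64 in males and -0.85 in females. eomesa had 0.28 in males and -0.54 in females. nkx2.4b had -0.85 in males and 1.01 in females. rx3 had -1.13 in males and 1.19 in females, on at most 23 counts in a library.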

How the results depend on the processing

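No member was called for genotype or for sex under the other settings, except without a filter, which called 1 for genotype (phox2bb, adjusted p = 0.0400 by edgeR) and 2 for sex (eomesa, adjusted p = 0.0161, and tbr1b, adjusted p = 0.0333). Fits with 1 library left out also lack the other factor, so each changed the library and the model together. They called 0 members for either. Over all genes, calls for genotype numbered 42, against 294 with no filter, 93 by DESeq2's Wald test, 5 without the covariate and, with the covariate and a library left out, 4 to 56, 4 without female atrn-/- and 27 without female WT. Calls for sex numbered 28, against 132 with no filter, 1 without the covariate and, with the covariate and a library left out, 1 to 78: 1 without male atrn-/-, 1 without male WT, 78 without female atrn-/- and 6 without female WT. At a threshold of 2-fold, 2 members were past it in males and 6 in females. With a mean of at least 50 counts, 7 members were past 1.5-fold in females, the pallial median in females was -0.55, and the brainstem median in males was 1.91, from phox2bb alone. Counting the median of each group in each sex once for each alternative, 82 values stayed within the counting spread and 2 did not. Those 2 came with the mean of at least 50 counts, which left out emx1 and emx3 from the pallium and phox2a from the brainstem pair. The cause of the other shifts was not tested. In an alternative added after the data had been seen, each library was set against 2 of the others, leaving out 1 at a time. In female atrn-/- the median lay between -1.19 and -0.80 for the pallium, -0.57 and -0.22 for the subpallium (-0.22 without male WT) and -0.015 and 0.16 for the cerebellum. In male atrn-/- it lay between -0.035 and 0.62 for the pallium, -0.32 and 0.031 for the subpallium, -0.43 and -0.25 for the hypothalamus, -0.00149 and 0.17 for the cerebellum and -0.28 and 0.45 for the brainstem pair. In male WT it lay between 0.11 and 0.78 for the pallium, 0.43 and 0.63 for the subpallium and 0.017 and 0.18 for the cerebellum. In female WT the pallial median lay between -0.30 (without female atrn-/-) and 0.36 (without male WT). No paired analysis was possible because each sex and genotype has 1 library, so no replicate number could serve as a block, and the model of both sexes already holds sex as a term. Depth limits emx3, sim1a, rx3, olig3, otx1a, ptf1a and atoh1a, which had under 50 counts in every library.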
